A study of Mus musculus with 18 samples.

Results

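The peaks described here are all those that 12 deposited lists place on mouse chromosome 8. They number 38742 of 712322 peaks, and 657987 others lie on the other 18 autosomes. The lists come from chromatin immunoprecipitation and sequencing (ChIP-seq) of 2 histone marks, H3K27ac and H3K4me3, in embryonic stem cells of C57BL/6 strain with the genotypes Mettl3_Control, Mettl3_KO1 and Mettl3_KO2, called Control, KO1 and KO2 below. Each genotype has 2 libraries per mark, so 1 mark has 2 Control and 4 knockout libraries. All cells were grown in serum with LIF and the inhibitors CHIR99021 and PD0325901, and the labels give neither the alleles of the knockout lines nor whether each line is 1 clone. Peaks were taken by chromosome name alone. Chromosome 8 itself was chosen because its share of peaks and its background were already known to differ between Control and the knockouts in these lists. That difference is therefore described without a test.

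H3K4me3 is a mark of promoters and is laid down mostly at start sites rich in CG dinucleotides. H3K27ac marks active promoters and also active enhancers away from genes. Mettl3 is the methyltransferase that deposits N6-methyladenosine on RNA. An extra copy of chromosome 8 is a change known to recur in cultured mouse embryonic stem cells. The lists hold no measure of DNA copy number, and whether the lines carry the same number of copies was not tested.

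The 4 promoters below show what kind of sequence the marks cover on this chromosome, each running 5′ to 3′ from 250 bases before a RefSeq start site through the first 50 bases of the transcript (GRCm38.p6, the assembly of mm10), with every CG dinucleotide in capitals. Nanos3 (chr8:84176503-84176802, minus strand) and the inner start site of Bcar1 (chr8:111732087-111732386, minus strand) lost H3K4me3 in both knockout lines, Klf2 (chr8:72318812-72319111, plus strand) lies beside the largest H3K27ac rise of a pluripotency gene here, and Tubb3 (chr8:123411303-123411602, plus strand) differed between KO2 and KO1.
Nanos3: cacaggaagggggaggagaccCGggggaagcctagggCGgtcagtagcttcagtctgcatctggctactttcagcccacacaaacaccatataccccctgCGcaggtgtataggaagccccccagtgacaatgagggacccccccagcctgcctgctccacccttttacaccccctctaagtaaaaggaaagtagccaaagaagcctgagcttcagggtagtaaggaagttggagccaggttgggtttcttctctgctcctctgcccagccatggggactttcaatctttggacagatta
Bcar1: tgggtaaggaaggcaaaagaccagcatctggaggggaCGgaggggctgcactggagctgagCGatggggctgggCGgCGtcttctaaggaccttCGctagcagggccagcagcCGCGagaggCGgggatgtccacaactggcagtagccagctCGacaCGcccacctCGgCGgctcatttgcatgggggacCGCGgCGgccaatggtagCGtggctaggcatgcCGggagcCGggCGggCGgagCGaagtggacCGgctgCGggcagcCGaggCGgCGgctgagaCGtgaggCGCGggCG
Klf2: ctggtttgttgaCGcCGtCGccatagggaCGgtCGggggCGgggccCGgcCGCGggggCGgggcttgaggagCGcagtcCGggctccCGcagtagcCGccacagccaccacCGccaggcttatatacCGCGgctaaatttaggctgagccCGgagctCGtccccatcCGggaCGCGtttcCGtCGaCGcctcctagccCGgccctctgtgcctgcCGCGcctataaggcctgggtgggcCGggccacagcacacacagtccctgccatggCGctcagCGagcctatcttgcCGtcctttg
Tubb3: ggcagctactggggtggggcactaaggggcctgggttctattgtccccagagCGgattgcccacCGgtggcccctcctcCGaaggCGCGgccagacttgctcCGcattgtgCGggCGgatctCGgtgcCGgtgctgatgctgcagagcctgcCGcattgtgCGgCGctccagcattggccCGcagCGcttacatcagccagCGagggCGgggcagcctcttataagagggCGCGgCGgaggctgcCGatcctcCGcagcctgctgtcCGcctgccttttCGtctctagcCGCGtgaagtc

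The Nanos3 sequence holds 3 CG dinucleotides, against 30 in Bcar1, 32 in Klf2 and 26 in Tubb3. H3K4me3 peaks covered 97.3% and 96.3% of the Nanos3 sequence in Control, 16.0% and 0% in KO1 and 0% in both KO2 libraries. At the Bcar1 sequence they covered 100% in both Control libraries, against 17.0% and 62.0% in KO1 and, for KO2, 55.7% and 57.3%. The CG-poor and the CG-rich promoter thus both lost H3K4me3 cover in every knockout library. The Klf2 sequence was covered by H3K27ac over 31.3% and 18.3% in the Control pair, 9.67% and 15.0% in the KO1 pair and 43.0% and 45.0% for KO2. At Tubb3, H3K4me3 covered 100% and 56.3% of the sequence in Control, 31.0% and 14.7% in KO1 and, for KO2, 60% and 100%. KO1 was the lowest genotype at both of these starts.

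Markers of embryonic stem cells were covered as the label says. All 8 tested marker promoters, Pou5f1, Sox2 and Nanog among them, had H3K4me3 over at least 20% of the window in every library, and 5 of the 8 had H3K27ac there. Promoters of 8 fibroblast markers, which feeder cells would carry, had no H3K27ac peak in any library and at most 22.1% H3K4me3 coverage. The lists give no read totals and the depth behind them is unknown. Nothing in the labels says that the 2 libraries of a group came from separate cultures, so each spread below may be technical. The lists hold no transcript level of Mettl3, and the knockouts themselves were not checked here.

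Chromosome 8 held a larger share of the autosomal peaks in Control than in either knockout line, for both marks. H3K27ac peaks on it made up 6.15% and 6.38% of autosomal peaks in Control, against 5.13% and 5.10% in KO1 and, for KO2, 5.29% and 5.22%. For H3K4me3 the shares were 6.07% and 6.17%, 5.24% and 5.24%, and 5.45% and 5.40%. The 2 genotype groups did not overlap for either mark, and the 4 knockout libraries lay close together. The log2 ratio of the knockout mean to Control was −0.27 for H3K27ac and −0.20 for H3K4me3.

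The share of covered base pairs differed more than the share of peaks. H3K27ac peaks on chromosome 8 held 6.22% and 6.45% of covered autosomal base pairs in Control, 4.91% and 4.92% in KO1 and, for KO2, 5.18% and 5.18%. H3K4me3 gave 6.46% and 6.53%, 5.13% and 5.10%, and 5.39% and 5.37%. The log2 ratio of knockouts to Control was −0.33 and −0.31. KO2 lay a little above KO1 for both marks, by 0.08 and 0.07 on the log2 scale, and the libraries of these lines did not overlap.

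**Figure D1:**
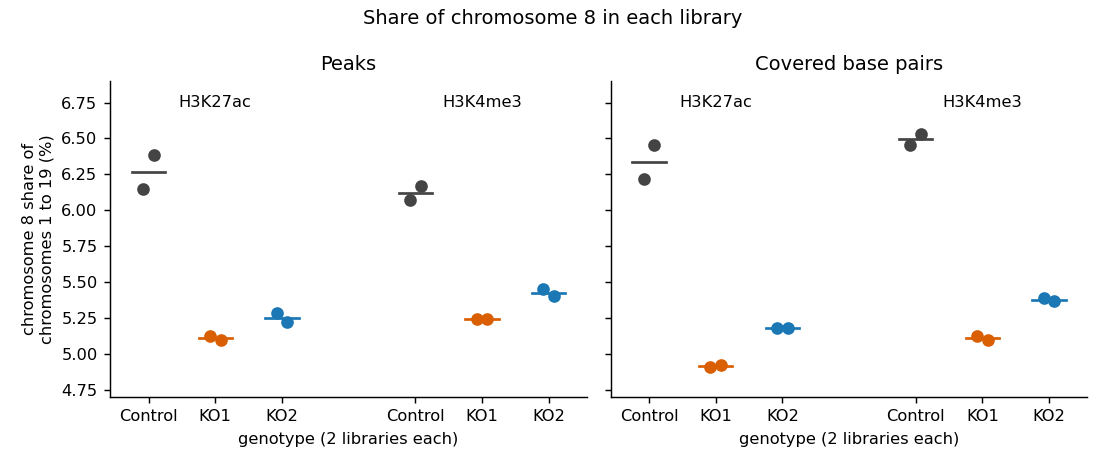
Share of chromosome 8 among all peaks (left) and all covered base pairs (right) of chromosomes 1 to 19, in percent, with 1 point per library and a line at the mean of each genotype. The axis does not start at 0. The Control libraries lie between 6.07% and 6.53%, and all knockout libraries lie between 4.91% and 5.45%.

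The number of peaks and the length they covered did not follow the share in both marks. The number of H3K27ac peaks was 1812 and 2070 in Control, against 2017 and 1950 in KO1 and, for KO2, 3379 and 3129. Those peaks covered 0.880 and 0.930 Mb in the Control pair, 0.942 and 0.844 Mb in the KO1 pair and 1.88 and 1.80 Mb for KO2. KO2 was thus the genotype with the most H3K27ac peak cover on chromosome 8, although its share was below that of Control. Its lists were longer over all autosomes too. They covered 36.3 and 34.7 Mb in KO2, against 14.2 and 14.4 Mb in Control and 19.2 and 17.2 Mb in KO1. The depth behind the lists is unknown, so cover is not an amount of the mark. H3K4me3 peaks numbered 4971 and 4932 in Control, against 3582 and 3544 in KO1 and, for KO2, 3848 and 3508. They covered 3.69 and 3.61 Mb, 2.34 and 2.25 Mb, and 2.64 and 2.19 Mb. Here both knockout lines lay below Control in number and in covered length.

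Among the 19 autosomes, chromosome 8 had the lowest log2 ratio of knockouts to Control in covered base pairs for both marks. For H3K27ac the next were chromosome 14 and chromosome 6, both at −0.17, and for H3K4me3 chromosome 4 at −0.20. The order was not the same in each line. In KO2 alone, the H3K27ac share of chromosome 14 fell further (−0.33) than that of chromosome 8 (−0.29), while in KO1 alone chromosome 14 stood at −0.02 and chromosome 8 at −0.37. Separation of the groups was common on other autosomes too. All 4 knockout libraries lay below both Control libraries in the share of covered base pairs on 3 other autosomes for H3K27ac and 4 for H3K4me3, and above them on 8 for each mark.

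**Figure D2:**
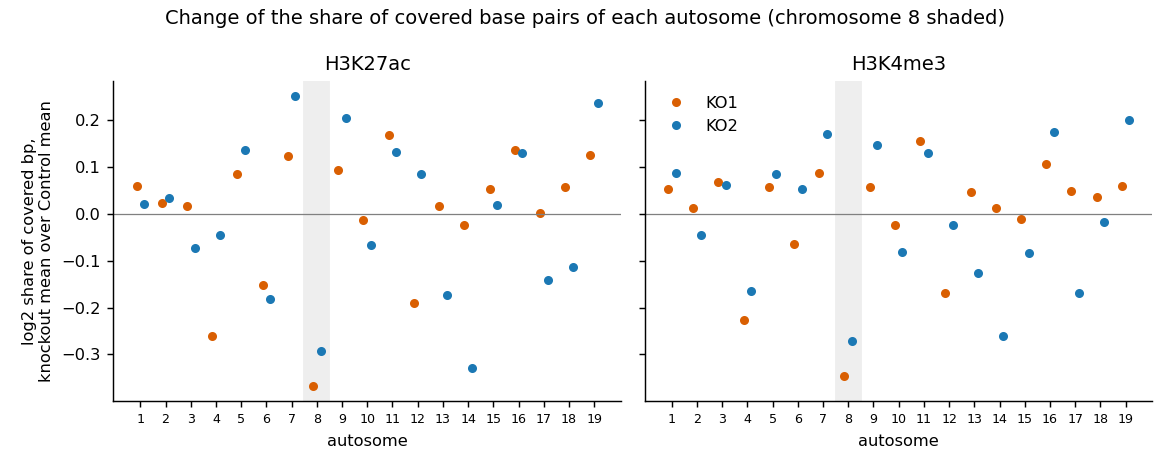
Log2 ratio of the mean share of covered base pairs in KO1 (orange) and KO2 (blue) to that in Control, for each autosome and mark, with chromosome 8 shaded. Chromosome 8 lies at −0.37 and −0.29 for H3K27ac, where chromosome 14 in KO2 lies lower at −0.33, and it is the lowest autosome in both lines for H3K4me3.

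The excess of chromosome 8 in Control was present near genes and away from them. Peaks whose position was within 2500 bp of an end of a protein-coding gene held 6.44% and 6.63% of such H3K27ac base pairs in Control, 5.21% and 5.35% in KO1 and, for KO2, 5.41% and 5.45%. Away from gene ends the shares were 6.08% and 6.34%, 4.72% and 4.65%, and 5.03% and 5.00%. Both classes of H3K27ac peak therefore had groups that did not overlap. For H3K4me3 the shares near gene ends were 6.19% and 6.30%, 5.28% and 5.28%, and 5.62% and 5.53%. Away from gene ends they were 6.69% and 6.73%, 4.98% and 4.91%, and 5.17% and 5.20%, the widest gap of the 4. H3K4me3 peaks near gene ends counted singly were closer, at 5.83% and 5.76% of peaks in Control, 5.44% and 5.49% in KO1 and, for KO2, 5.72% and 5.67%.

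Strong and weak H3K27ac peaks both showed the difference. When the peaks of each library were ranked by q and split into 4 equal classes, the H3K27ac share of chromosome 8 ran from 5.59% to 6.89% over the classes in Control, from 4.51% to 5.39% in KO1 and from 4.81% to 5.50% in KO2. For H3K4me3 the strongest class had 6.38% and 6.48% of its peaks on chromosome 8 in Control, 5.44% and 5.27% in KO1 and, for KO2, 5.75% and 5.75%. The second-weakest class was the exception, with 5.51% and 5.88% in Control and 5.51% and 5.56% in KO2, which overlap.

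Peaks of H3K4me3 on chromosome 8 were also wider than elsewhere in Control. Their mean width was 742 and 732 bp there, against 694 and 689 bp on the other autosomes of the same lists. In KO1 the mean was below that elsewhere, at 652 and 636 bp against 668 and 655 bp. In KO2 it was 685 and 624 bp against 694 and 628 bp. The median width was above that elsewhere in every library. It was 370 and 377.5 bp against 362 and 365 bp in Control and 374 and 378 bp against 372 and 368 bp in KO1. In KO2 it was 402 and 374 bp against 398 and 373 bp. The authors' fold over local background is a value of each peak within its own list. Its median on chromosome 8 in Control was 4.93 and 5.07, below the 5.22 and 5.35 of the other autosomes, and in KO1 it was 5.73 and 5.71, above 5.64 and 5.60. In KO2 it was 5.77 in replicate 1, below 5.93, and 6.23 on chromosome 8 and elsewhere in replicate 2.

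Position along the chromosome was described in 10-Mb intervals. The covered base pairs of each 10-Mb interval were set against 10000 covered base pairs of the other autosomes of the same library. All 4 knockout libraries were below both Control libraries in 13 of 13 intervals for H3K4me3 and in 11 of 13 for H3K27ac. Over all 255 intervals of the autosomes, 22.7% were lower in this way for H3K4me3 and 30.6% for H3K27ac. The chromosome was chosen on this contrast, and nothing was read from the counts.

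Intervals differed in how far they moved. The median ratio to Control over the 13 intervals was 0.748 in KO1 and 0.794 in KO2 for H3K27ac, and 0.766 and 0.818 for H3K4me3. The interval from 50 to 60 Mb, with the least covered length of H3K4me3, had the lowest H3K27ac ratios, 0.597 in KO1 and 0.460 in KO2, and H3K4me3 ratios of 0.858 and 0.818. The interval from 110 to 120 Mb had the highest H3K27ac ratios, 0.838 and 1.04, and H3K4me3 ratios of 0.714 and 0.797. It and the first 10 Mb (0.809 and 0.976) were the H3K27ac intervals where the groups overlapped. The 2 marks thus did not order the intervals in the same way.

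**Figure D3:**
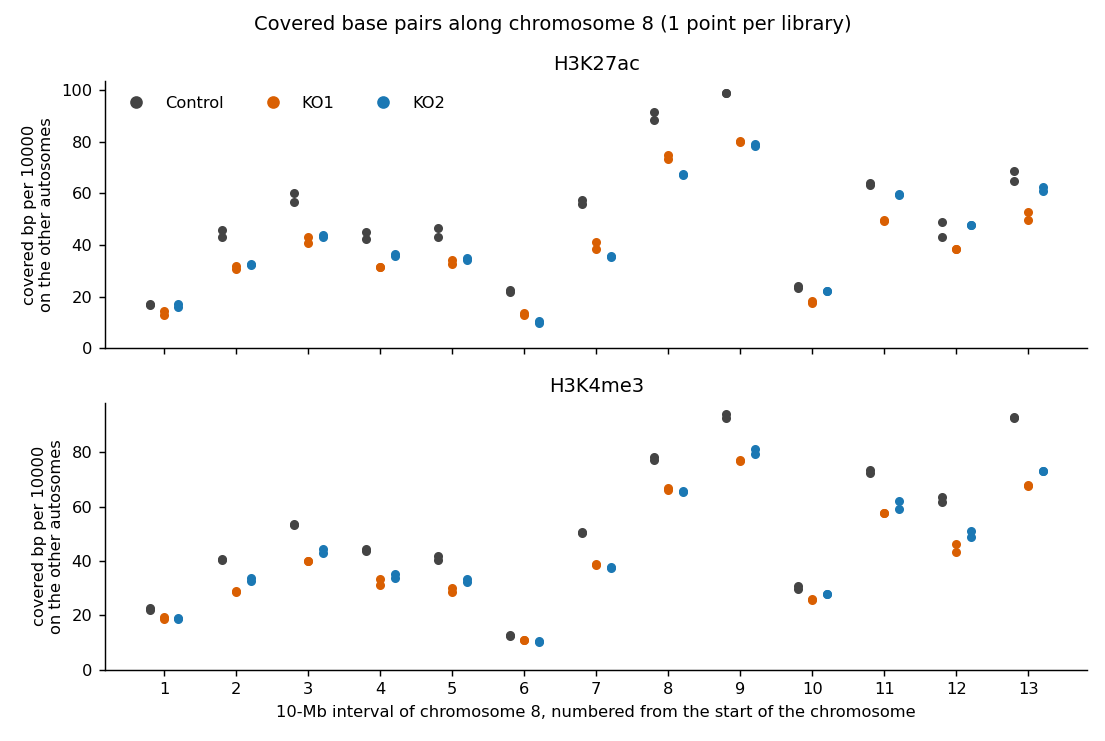
Covered base pairs in each 10-Mb interval of chromosome 8 per 10000 covered base pairs on the other autosomes of the same library, for H3K27ac (top) and H3K4me3 (bottom), with 1 point per library. Control points lie above all knockout points in 11 of 13 H3K27ac intervals and 13 of 13 H3K4me3 intervals.

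The background under the peaks showed the same order of genotypes. It was recovered for each peak from the authors' fold and p-value, and its mean on chromosome 8 was divided by that on the other autosomes. This relative background was 1.30 and 1.26 in the H3K27ac libraries of Control, 0.985 and 0.964 in KO1 and, for KO2, 1.03 and 1.02. In the H3K4me3 libraries it was 1.27 and 1.27, 0.977 and 0.971, and 1.03 and 1.01. Chromosome 8 ranked first of 19 autosomes in all 4 Control libraries. The second was chromosome 6, at 1.19 to 1.22. In KO1 chromosome 11 was highest (1.19 to 1.21), followed by chromosome 18 (1.13 to 1.14). In KO2 chromosome 6 was highest (1.2 to 1.24). Autosomes other than chromosome 8 were thus raised in each genotype.

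**Figure D4:**
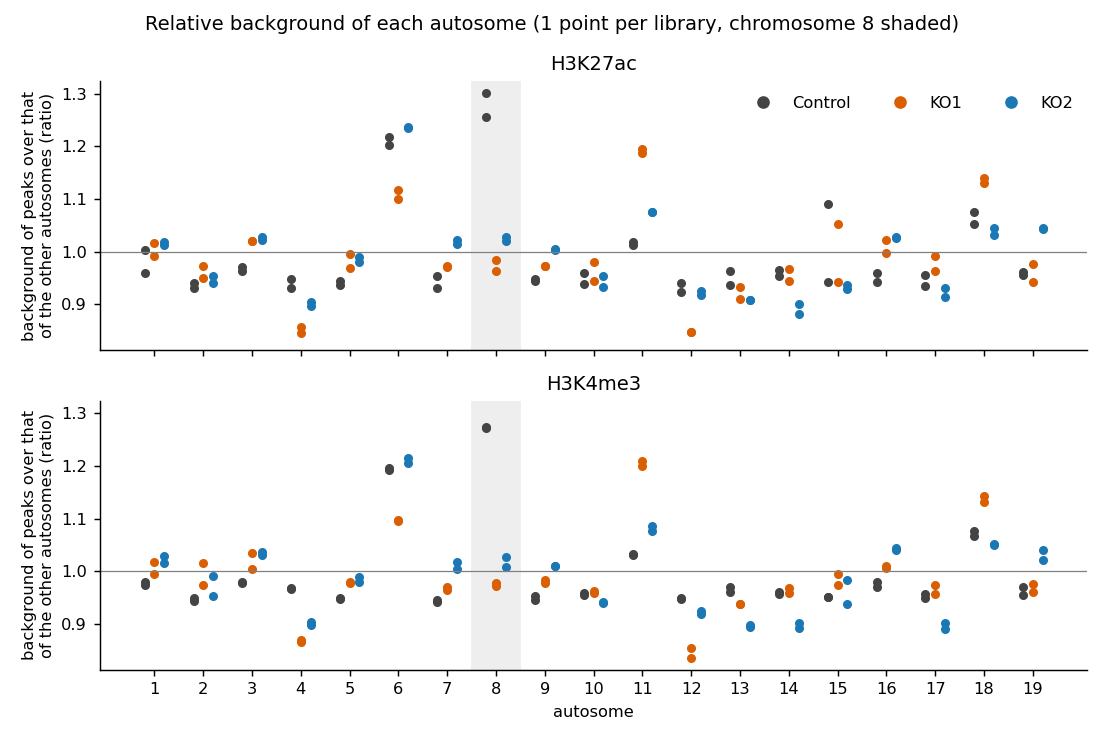
Mean recovered background of the peaks on each autosome divided by that of the peaks on all other autosomes, for H3K27ac (top) and H3K4me3 (bottom), with 1 point per library and chromosome 8 shaded. The Control libraries lie at 1.26 to 1.30 on chromosome 8 and the knockout libraries between 0.964 and 1.03.

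Along the chromosome the background was raised in every interval of Control. In the H3K4me3 libraries the relative background of the 13 intervals ran from 1.19 to 1.32 and from 1.21 to 1.35 in Control, from 0.898 to 1.06 in KO1 and from 0.952 to 1.06 in KO2. H3K27ac gave 1.05 to 1.41 and 1.18 to 1.32 in Control. In the knockouts it gave 0.851 to 1.07 in KO1 and 0.950 to 1.09 in KO2. The lowest Control interval of H3K27ac, 1.05 in replicate 1, was the first 10 Mb and lay within the range of the knockout libraries.

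Regions with a peak in all 6 libraries of a mark allow the same places to be compared. A region is kept only where no library lacks a peak, so the library with the weakest signal decides. The set thus still depends on the contrast by which the chromosome was chosen. Chromosome 8 had 903 such regions for H3K27ac and 1499 for H3K4me3. The recovered pileup at the summit, divided by that of the shared regions of the other autosomes, was 1.19 and 1.19 for H3K27ac in Control, 0.935 and 0.932 in KO1 and, for KO2, 1.01 and 0.993. For H3K4me3 it was 1.31 and 1.32, 1.00 and 0.999, and 1.05 and 1.05. Signal at shared regions of chromosome 8 was thus above that elsewhere in Control for both marks. The background of the same regions was 1.31 and 1.29 times that elsewhere for H3K27ac in Control and 1.31 and 1.30 times for H3K4me3. The mean fold, in which pileup is set against background, overlapped between genotypes for H3K27ac, at 0.966 and 0.985 of that elsewhere in Control, 0.942 and 0.963 in KO1 and, for KO2, 0.988 and 0.985. For H3K4me3 it was 1.07 and 1.09 in the Control pair, 1.01 and 1.01 in the KO1 pair and 1.03 and 1.04 for KO2, so Control stayed above by more than the spread between replicates.

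Regions found in 1 genotype group only were unevenly placed. Chromosome 8 held 5.32% of all H3K27ac regions of the autosomes, 13.4% (21 of 157) of those in both Control libraries and no knockout library, and 2.41% (63 of 2618) of those in all 4 knockout libraries and no Control library. These patterns made up 0.208% and 3.47% of the 75443 H3K27ac regions. For H3K4me3 the chromosome held 5.81% of all regions, 9.32% (486 of 5216) of the Control pattern and 2.34% (20 of 855) of the knockout pattern. The patterns made up 5.06% and 0.83% of 103023 regions. The contrast is the one by which the chromosome was chosen, so the counts are a description. The Jaccard index of covered base pairs on chromosome 8 was 0.548 to 0.625 between replicates and 0.38 to 0.561 between genotypes for H3K27ac. H3K4me3 gave 0.638 to 0.660 and 0.478 to 0.612, with no overlap of the 2 ranges.

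Windows of 1 Mb, fitted with limma over all chromosomes after centring each library on the other autosomes, showed which stretches moved most. Of 85 tested H3K27ac windows on chromosome 8, 61 fell and 3 rose when both lines were averaged, and the median log2 change was −0.34 (adjusted p under 0.05, Benjamini-Hochberg). Over all 1681 windows, 30.5% were lower and 27.2% higher, and the other chromosomes had a median of −0.005. Of 94 H3K4me3 windows, 59 were lower and 6 higher, with a median of −0.21. Over all 1926 windows 22.8% were lower and 37.9% higher, and the other chromosomes had a median of 0.09. Nothing was read from the counts. Without centring, 56 H3K27ac windows of the chromosome were higher and 6 lower (limma, adjusted p under 0.05). For H3K4me3 none was higher and 76 were lower in that fit. The H3K27ac direction thus turns with the centring. Uncentred values carry the length of each list over all autosomes, which was greatest for H3K27ac in KO2. Shares over all windows are not given for the uncentred fit, and nothing else was read from its counts.

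The windows with the largest falls in H3K4me3 held developmental and chromatin genes. The window from 80 to 81 Mb, with Smarca5, the ATPase of ISWI remodelling complexes, Gab1, an adaptor of receptor tyrosine kinases, and the hedgehog inhibitor gene Hhip, had 60.5 and 60.4 kb covered in Control. It had 26.0 and 25.9 kb in KO1 and, for KO2, 19.3 and 16.5 kb. The window of the protocadherin gene Fat1 (44 to 45 Mb) went from 37.6 and 36.0 kb to 13.3 and 12.2 kb and to 14.3 and 11.2 kb. That of Zfhx3, a homeobox and zinc-finger gene (108 to 109 Mb), went from 22.8 and 22.1 kb to 7.51 and 6.66 kb and to 9.29 and 8.16 kb. In all 3 windows every knockout library lay far below both Control libraries. The windows were ranked on the contrast behind the choice of the chromosome and are given without a test. The H3K4me3 windows with the largest rises relative to the other autosomes had little cover. That of Irs2, an insulin receptor substrate gene (10 to 11 Mb), had 1.94 and 1.76 kb, 1.95 and 2.09 kb, and 3.77 and 2.83 kb. The window of Wwox (114 to 115 Mb) had 1.77 and 2.66 kb, 2.09 and 1.17 kb, and 3.90 and 3.59 kb, and that of the Ces1 genes and Gnao1 (93 to 94 Mb) had 2.45 and 2.84 kb, 3.03 and 2.73 kb, and 2.46 and 3.47 kb. At Irs2 and Wwox both KO2 libraries lay above both Control libraries, and at the Ces1 genes KO2 overlapped Control.

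Of the H3K27ac windows with the largest falls, that with Zmat4 and a cluster of Adam genes (24 to 25 Mb) had 10.0 and 9.90 kb covered in Control, 5.62 and 4 kb in KO1 and, for KO2, 11.1 and 9.66 kb. Its covered length in KO2 overlapped that of Control, and relative to the other autosomes it was lower in both lines. The window of Psd3 and the arylamine acetyltransferase genes Nat1, Nat2 and Nat3 (67 to 68 Mb) went from 2.84 and 3.21 kb to 1.56 and 1.36 kb and to 1.32 and 1.73 kb. The third, 52 to 53 Mb, holds no protein-coding gene in the RefSeq table. The largest H3K27ac rise, in the window of Pkd1l2 and the phospholipase gene Plcg2 (117 to 118 Mb), went from 5.80 and 7.14 kb to 10.1 and 8.24 kb and to 29.5 and 29.3 kb. The next rises were in the windows of Cdh13, Hsbp1 and Usp10 (119 to 120 Mb), from 5.09 and 4.45 kb to 8.02 and 6.20 kb and to 18.3 and 18.1 kb, and of Enpp6 and Ing2 (47 to 48 Mb), from 10.1 and 9.33 kb to 15.4 and 12.5 kb and to 27.4 and 29.0 kb. In these 3 windows KO2 had the most cover.

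Promoter coverage is the percent of a window, 2 kb to each side of its centre, that peaks cover at each protein-coding gene. The window is the one with most H3K4me3 along the gene over all libraries, so it can lie at an inner start site or elsewhere inside the gene. The H3K4me3 values that are tested thus also placed the windows. Over all genes, 67.5% of the windows are centred within 1 kb of a gene end. Chromosome 8 has 1043 protein-coding genes in the RefSeq table, 847 with a window, 559 tested for H3K27ac and 768 for H3K4me3. Mean H3K4me3 coverage of the tested genes was 53.4% and 52.9% in Control, against 43.8% and 43.0% in KO1 and, for KO2, 45.8% and 41.6%. Set against the other autosomes this was 4.76 and 4.87 points above in Control, 0.768 and 0.964 points below in KO1 and 0.399 and 0.292 points above in KO2. H3K27ac coverage averaged 18.9% and 20% in the Control pair, 20% and 18.9% in the KO1 pair and 36.1% and 35.9% for KO2. It was 2.11 and 2.77 points above the other autosomes in Control, and below them in all 4 knockout libraries.

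In the limma fit over all promoters, 237 of the 559 chromosome 8 genes rose in H3K27ac and 4 fell when both lines were averaged (adjusted p under 0.05). The median change was 7.29 points against 10.5 on the other chromosomes. Over all 10189 promoters, 62.9% were higher and 0.245% lower. For H3K4me3, 171 of 768 were lower and 3 higher, with a median of −7.78 points against −2.94, and over all 14118 promoters 9.02% were lower and 1.48% higher. In KO1 alone 3 chromosome 8 genes were higher and 1 lower in H3K27ac, against 0.55% and 0.0491% of all promoters, and 2 higher and 45 lower in H3K4me3, against 0.326% and 1.91%. In KO2 alone 432 were higher and 2 lower in H3K27ac, against 86.2% and 0.236%, and 7 higher and 136 lower in H3K4me3, against 2.12% and 9.97%. Nothing was read from these counts, which use the contrast behind the choice of the chromosome. They also depend on single libraries, and so do the calls over all promoters, which became fewer in every fit that left out 1 library. Over all promoters too, no H3K4me3 call remained without any 1 of the Control and KO1 libraries. The 171 became 0 without any 1 of the Control and KO1 libraries, that is Control 1, Control 2, KO1 1 or KO1 2 (257, 265, 297 and 292 at an unadjusted p under 0.05, limma). They became 14 without KO2 replicate 2. The 3 higher genes became 0 in the same 4 fits (6, 10, 8 and 8 unadjusted) and 1 without KO2 replicate 2. The 237 became 85 and 117 without Control replicate 1 and 2, 156 without KO1 replicate 1 and 152 without KO2 replicate 1. The 4 lower genes became 1 without either Control replicate, KO1 replicate 2 or KO2 replicate 1, 2 without KO2 replicate 2 and 6 without KO1 replicate 1.

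Centring every chromosome on its own median in each library removes what is common to chromosome 8 and leaves the differences among its genes. With it, 20 chromosome 8 genes were higher and 8 lower in H3K27ac, 3.58% and 1.43% of those tested, against 4.13% and 2.38% over all promoters. For H3K4me3, 93 were higher and 45 lower, 12.1% and 5.86%, against 4.55% and 5.52%. The balance of H3K4me3 calls thus went from mostly lower to mostly higher, while H3K27ac calls became few. Promoters that peaks covered fully in Control and knockouts count as higher under it, as Ctcf, the insulator protein gene, which stood at 100%, 100% and 98.7% in Control, KO1 and KO2 and had a centred change of 9.81 points. All genes named next for the mean of both lines passed the limma test with and without this centring. The centring lowered every H3K27ac change on the chromosome by the same amount and raised every H3K4me3 change by the same amount. It could thus only enlarge H3K27ac falls and H3K4me3 rises, and passing with it is no further check for those. Camsap3, Zmat4, Csgalnact1, Unc5d, Tnks, Eif4ebp1 and Il34 had no start site among the promoter sequences. No window centred on a start site was therefore fitted for them.

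H3K27ac rose most at Pkd1l2, a polycystin family gene, in a window inside the gene (chr8:117016179-117020179). Coverage was 5.22% and 9.45% in Control, against 67.3% and 71.4% in KO1 and, for KO2, 86.3% and 92.0%, a difference of 71.9 ± 3.87 points (SE; adjusted p = 0.000949, limma), and 63.5 points after centring (adjusted p = 0.000571). Both lines were far above Control there. Camsap3, which encodes a protein of microtubule minus ends (chr8:3596737-3600737), had 18.8% and 18.5% in the Control pair, 27.4% and 37.6% in the KO1 pair and 85.8% and 89.9% for KO2. Its difference was 41.5 ± 4.15 points (SE; limma adjusted p = 0.00114, and after centring 33.2 points with adjusted p = 0.00533), most of it in KO2. Klf2, a Krüppel-like factor of the naive pluripotency network (chr8:72318962-72322962), had 55.3% and 53.0% in Control, against 79.0% and 75.3% in KO1 and, for KO2, 99.5% and 88.7%. It rose by 31.4 ± 4.06 points (SE; limma adjusted p = 0.00187, and after centring 23.1 points with adjusted p = 0.0133). In a window centred on its RefSeq start site, 1900 bp upstream of the centre used here, the change was 3.04 points and did not pass.

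Nwd1 rose by 33.4 points (limma adjusted p = 0.00263) and by 25.1 after centring (adjusted p = 0.0232), with 28.5 points in KO1 and 38.3 in KO2. Its window is centred inside the gene, 31314 bp from the RefSeq start site. Neither mark covered the promoter sequence at that start site in any library. Gse1, which encodes a component of co-repressor complexes, and Atmin, an interactor of the ATM kinase, rose mostly in KO2. Their changes over both lines were 30.0 and 27.4 points (limma adjusted p = 0.00478 and 0.00148), and 21.7 and 19 after centring (adjusted p = 0.0429 and 0.0118). Atmin had 8.92% and 8.25% in the Control pair, 12% and 10.2% in the KO1 pair and 64.0% and 57.7% for KO2. Quantile normalization ended the calls of Nwd1, Klf2, Gse1 and Atmin, with changes of 13.3 to 15.6 points, and kept those of Pkd1l2 and Camsap3.

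H3K27ac fell at 4 genes. Zmat4, a zinc-finger gene, had 91.2% and 82.2% in Control, against 37.9% and 32.7% in KO1 and, for KO2, 75.7% and 53.2% (chr8:24042726-24046726), a difference of −36.8 ± 6.39 points (SE; limma adjusted p = 0.00385, and after centring −45.2 points with adjusted p = 0.00549). KO1 was lowest and KO2 lay between. This window and those of Csgalnact1 and Unc5d lie inside the gene. Csgalnact1, an enzyme gene of chondroitin sulphate synthesis, the netrin receptor gene Unc5d and the amino acid transporter gene Slc38a7 fell by 14.5, 9.54 and 6.67 points, with limma adjusted p of 0.0381, 0.0308 and 0.0297. After centring the changes were −22.9, −17.9 and −15.0 points. Each of these 3 lost its call without either Control library, without KO1 replicate 2 or without KO2 replicate 1, and the first 2 also without KO2 replicate 2. The H3K27ac call of Zmat4 held in every fit that left out 1 library.

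H3K4me3 rose at 3 genes and fell most at 6. All of these H3K4me3 calls, that of Zmat4 included, ended without any 1 of the Control and KO1 libraries, as above. Pkd1l2 rose in this mark too, from 17.2% and 13.3% in Control to 81.6% and 84.5% in KO1 and, for KO2, 89.4% and 73.9%, by 67.1 ± 5.37 points (SE; limma adjusted p = 0.008, and after centring 77.5 points with adjusted p = 0.000493). Its RefSeq start site lies 64270 bp from the window centre, and neither mark covered the promoter sequence there in any library. H3K4me3 of these same libraries placed the window, and its cover there was mostly that of the knockouts. The H3K4me3 rise of Pkd1l2 is therefore not independent of where the window lies. Phlpp2, a phosphatase gene, and Hydin, a gene of motile cilia, rose by 22.6 and 19 points in windows inside the gene (limma adjusted p = 0.0262 and 0.0193), and by 33.1 and 29.5 after centring. At their RefSeq start sites the changes were −0.85 and −2.11 points and did not pass, so their rises belong to the inner windows.

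Zmat4 also had the largest H3K4me3 fall, from 91.3% and 91.9% in Control to 28.1% and 28.5% in KO1 and, for KO2, 53.5% and 31.2%, by 56.2 ± 6.35 points (SE; limma adjusted p = 0.0136, and after centring −45.8 points with adjusted p = 0.00359). Bcar1, which encodes the adaptor p130Cas of focal adhesions, fell in the window at the inner start site shown above (chr8:111728674-111732674). It had 90.7% and 97.6% in the Control pair, 27.1% and 46.0% in the KO1 pair and 46.0% and 36.7% for KO2, a difference of −55.2 ± 6.37 points (SE; limma adjusted p = 0.0136, and after centring −44.7 points with adjusted p = 0.00546). Its outer start site remained covered, over 100% of the sequence in 5 libraries and 78.3% in KO1 replicate 1. The fall at Bcar1 was thus measured at 1 of its 2 start sites.

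Nanos3, which encodes an RNA-binding protein of germ cells, fell at its RefSeq start site (chr8:84174552-84178552), where the CG-poor sequence above lies. Coverage was 59.6% and 49.6% in Control, against 13.6% and 10.3% in KO1 and, for KO2, 15.7% and 4.55%, a difference of −43.6 ± 4.11 points (SE; limma adjusted p = 0.0107, and after centring −33.1 points with adjusted p = 0.00309). H3K27ac at the same window was 3.80% and 0% in the Control pair, 0% and 4.02% in the KO1 pair and 21.4% and 13.4% for KO2, a change of 7.80 points (limma adjusted p = 0.0413) that fell to −0.55 after centring. Tnks, the gene of the poly-ADP-ribose polymerase tankyrase, had 92.2% and 93.2% in Control, against 47.9% and 49.8% in KO1 and, for KO2, 47.3% and 46.7%. Both lines lay at about the same level, and the centred change was −34.3 points. Got2, a mitochondrial aspartate aminotransferase, and Tfdp1, the partner of E2F factors, fell by 45.2 and 41.1 points with limma adjusted p of 0.0136 each, and the centred changes were −34.8 and −30.6. In the window at their RefSeq start sites, which lie near the edge of the windows used here, they changed by −5.82 and −7.07 points and did not pass.

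**Figure D5:**
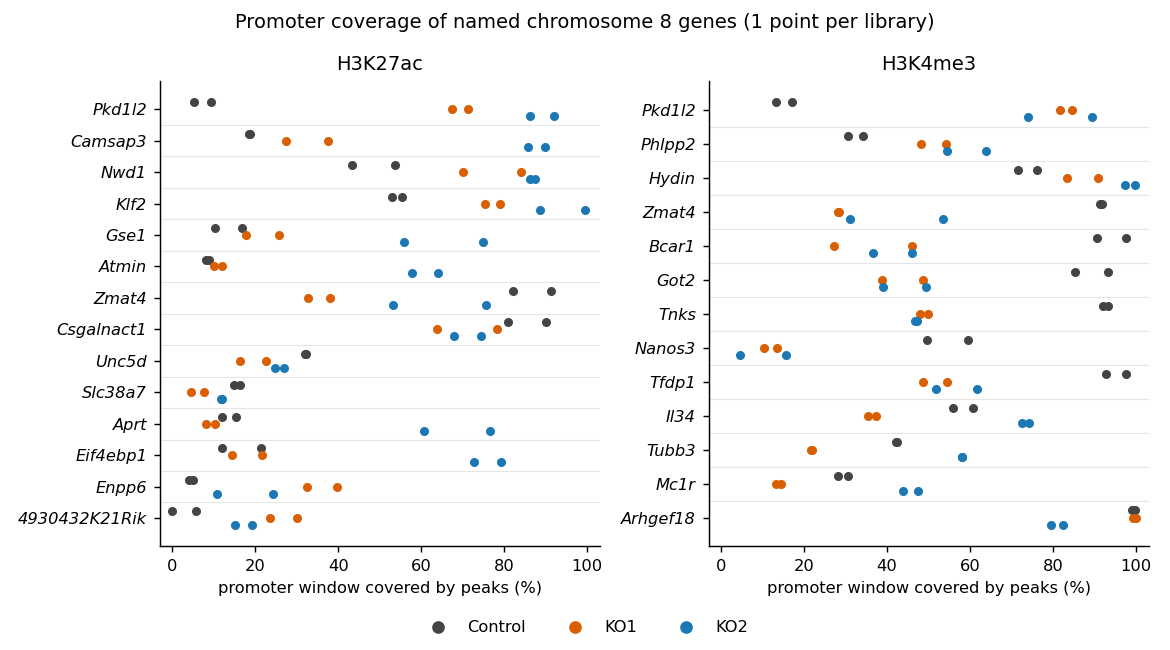
Percent of the promoter window covered by H3K27ac (left) and H3K4me3 (right) peaks at the named genes of chromosome 8, with 1 point per library, coloured by genotype. Pkd1l2 lies at 5.22% to 17.2% in Control and at 67.3% to 92.0% in the knockouts for the 2 marks, and Nanos3 falls below 16% for H3K4me3 in all 4 knockout libraries.

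The knockout lines also differed from each other. In H3K27ac, 431 of 559 chromosome 8 promoters were higher in KO2 than in KO1 and 2 lower (limma), against 73.5% and 0.196% of all promoters, shares close to those of the genome. The largest gaps were at Aprt, the purine salvage enzyme, with 12.1% and 15.4% in the Control pair, 10.2% and 8.05% in the KO1 pair and 60.6% and 76.5% for KO2. At Eif4ebp1, the repressor of cap-dependent translation, the values were 12% and 21.4%, 21.6% and 14.4%, and 79.2% and 72.7%. KO1 stayed at the level of Control at both genes. Enpp6, a choline phosphodiesterase, was 1 of the 2 that went the other way, with 4.97% and 4% in Control, against 39.6% and 32.5% in KO1 and, for KO2, 10.8% and 24.2%. The call ended without KO1 replicate 1 or KO2 replicate 1. The Enpp6 window is centred 72910 bp from the RefSeq start site, where neither mark covered the promoter sequence in any library. The other was 4930432K21Rik, whose call ended with no minimum of mean coverage and without Control replicate 1, KO1 replicate 2, KO2 replicate 1 or KO2 replicate 2.

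In H3K4me3, 7 promoters of the chromosome were higher in KO2 than in KO1 and 1 lower (limma), against 0.63% and 0.368% of all promoters. Il34, the second ligand of the CSF1 receptor, had 55.9% and 60.8% in the Control pair, 37.4% and 35.3% in the KO1 pair and 74.3% and 72.6% for KO2. Tubb3, a tubulin of neurons, had 42.5% and 42.1%, 21.9% and 21.6%, and 58.1% and 58.1%. Control lay between the lines at both genes. Mc1r, the melanocortin receptor gene upstream of Tubb3, shares part of that window and moved with it. Arhgef18 was the 1 lower, with 99.1% and 99.7%, 100% and 99.4%, and 82.3% and 79.6%. The KO2 minus KO1 changes were 37.1, 36.4, 31.8 and −18.7 points with limma adjusted p of 0.0288, 0.0158, 0.0158 and 0.0305. In windows centred on a RefSeq start site, Tubb3 passed with 38.5 points and Arhgef18 did not pass, with −5.06. Each of these 4 calls ended without any 1 of the Control and KO1 libraries or KO2 replicate 2, and that of Il34 also without KO2 replicate 1.

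Genes of known function on the chromosome were followed through 9 lists with 150 members on it. The H3K27ac list of pluripotency and embryonic stem cell signalling had 12 tested members, of which 5 rose and none fell (limma), against 237 of 559 over the chromosome and 62.9% of all promoters, with a median change of 9.13 points. After centring 2 rose, and none did with quantile normalization. Cdh1, which encodes E-cadherin, had 15.3% and 10.8% in Control, against 20.7% and 12.4% in KO1 and, for KO2, 60.1% and 75.9%. Sall1, a zinc-finger partner in the pluripotency network, had 60.1% and 80.7%, 76.2% and 81.4%, and 94.1% and 100%. Klf2 and Cdh1 also passed after centring, with 23.1 and 20.9 points, and Sall1 did not, with 9.19. Zfp42 (Rex1), a marker of naive cells, did not pass, at mean coverages of 48.3%, 39.1% and 75% in Control, KO1 and KO2.

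The regulatory lists held rises in H3K27ac that were mostly seen in KO2, as they were over all promoters. In KO2 alone 86.2% of all promoters and 77.3% of those on the chromosome were higher (limma). In KO1 alone the shares were 0.55% and 0.537%. Of 20 tested chromatin and genome organisation genes 8 rose, with a median change of 9.67 points over the list. Ing1 and Ing2, whose proteins read H3K4me3 in histone deacetylase complexes, went from mean coverages of 29.8% and 31.0% in Control to 43.3% and 45.6% in KO1 and, for KO2, 65.5% and 66.9%, and both passed after centring. The H3K36 methyltransferase gene Nsd3 and the acetyltransferase gene Kat6a were at 14.8% and 8.34% in the Control pair, 16.4% and 7.89% in the KO1 pair and 41.9% and 31.3% for KO2. Among lineage factors 3 of 9 tested rose (median 8.44 points), one of them Nfat5, the osmotic stress factor, at 20.6%, 28.9% and 53.5%. In replication, cell cycle and repair 4 of 15 rose (median 6.01). The metabolic list had 8 of 17 (median 7.84), with the metallothionein genes Mt1 and Mt2 at 2.26% and 12.1%, 10.1% and 20%, and 34.3% and 56.6%. Neural genes had 5 of 6 (median 10.8), with Tubb3 at 5.12%, 9% and 53.2%. The shares are read against the 62.9% of all promoters that rose and the 42.4% on the chromosome. After centring, 3 chromatin genes, 1 neural gene and no lineage, replication or metabolic gene rose.

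Before centring, list members called for the mean of both lines in H3K4me3 were all lower, on a chromosome with 22.3% of its tested promoters lower against 9.02% of all. After centring, more were higher than lower in the lists of pluripotency (3 and 1), lineage factors (4 and 0), chromatin (5 and 2) and neural genes (3 and 0). The chromosome as a whole went the same way under this centring, with 12.1% of its tested promoters higher and 5.86% lower. Over all promoters the shares were 4.55% and 5.52%, and nothing was read from the list counts. In KO2 alone, Tubb3 was higher than Control. The core expression list of ribosome, proteasome and translation genes had 6 of 13 lower, with a median change of −15.9 points against −7.78 over the chromosome. Farsa, a phenylalanyl-tRNA synthetase subunit gene, had 76.6% and 77.4% in Control, against 59.5% and 48.1% in KO1 and, for KO2, 43.4% and 33.6%. Aars, the alanyl-tRNA synthetase gene, had 96.3% and 91.7%, 67.1% and 68.6%, and 77.2% and 60.6%. Polr2c, a subunit of RNA polymerase II, had 54.9% and 56.1%, 40.3% and 42.4%, and 30.4% and 38.3%. Of these 3, Farsa alone also passed after centring. In chromatin and genome organisation 4 of 19 were lower (median −6.87), with Zc3h18, which links the cap-binding complex to RNA decay, at mean coverages of 84.3%, 54.2% and 42.3%, and Nsd3 at 92.3%, 65.6% and 62.7%. Fto, which encodes an RNA demethylase, stood at 33.4%, 34.2% and 32.7% and was not called.

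Lineage factors had 5 of 26 lower in H3K4me3 (median −8.35 points), a share near the 22.3% of the chromosome. Foxf1, a forkhead gene of lateral mesoderm, had 31.7% and 51.2% in Control, 0% in both KO1 libraries and 31.7% and 27.5% in KO2. Sox1, a marker of neuroectoderm, had 76.5% and 67.9%, 38.8% and 49.5%, and 60.8% and 52.0%. At both genes the KO1 libraries lay below the KO2 libraries. Pluripotency and signalling genes had 3 of 13 lower (median −5.42), which were Nanos3, Fgfr1, a fibroblast growth factor receptor, at 95.5%, 79.3% and 71.7%, and Gab1 at 96.5%, 86.1% and 76.9%. Sox1, Foxf1, Fgfr1 and Gab1 did not pass after centring (adjusted p = 0.148, 0.0594, 0.153 and 0.462, limma). Replication, cell cycle and repair had 2 of 15 (median −5.96), E2f4 among them, and metabolism 2 of 19 (median −5.94), Got2 and the peroxiredoxin gene Prdx2. All H3K4me3 calls in the lists ended without any 1 of the Control and KO1 libraries, as above. Of the 18 carboxylesterase genes of the Ces clusters, 2 had a window at all and none could be tested in either mark.

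The base composition of promoters on the chromosome was close to that elsewhere. RefSeq gives 1442 promoter sequences of 1204 genes on it, with a median of 8 CG dinucleotides per 300 bases against 7 on the other autosomes, and 45.4% hold at least 10 against 43.9%. The GC box GGGCGG, read on both strands and overlapping the CG counted here, was in 36.9% against 35.9%, and in all 4 promoters shown. Of the promoters with at least 10 CG, 37.6% and 39.8% overlapped an H3K27ac peak on chromosome 8 in Control, against 30.9% and 33.4% elsewhere. In KO1 the shares were 41.2% and 41.2% against 41.7% and 40.3%, and in KO2 62.6% and 64.3% against 59.8% and 61.1%. The difference from other autosomes was thus widest in Control. For H3K4me3 the shares were 86.1% and 85.0% against 82.0% and 81.6% in Control, 82.9% and 82.4% against 82.4% and 81.7% in KO1, and 87.0% and 84.7% against 85.0% and 82.7% in KO2.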

How the data were processed

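H3K27ac and H3K4me3 ChIP-seq gave 12 deposited peak lists (3 genotypes, 2 marks, 2 libraries each), and 6 input samples were not used. Per the submitters' processing notes, the authors used CASAVA, Trimmomatic 0.38, Bowtie 1.2.2 and MACS2 (version not given in the sources used here) with mm10. The deposited lists give, for each peak, the fold (a ratio) over local background, p and q on a −log10 scale and a score, as the authors' caller wrote them. All peaks have q under 0.01. The sources used here do not say how input and spike-in chromatin entered the calls, and the lists were called per library.

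Shares were taken over chromosomes 1 to 19. Local background was recovered from each peak's fold and p-value, taken as (pileup + 1) / (background + 1) and a Poisson tail. Lists whose pileups were not whole numbers were first divided by a scale found from the values. Gene positions and promoter sequences came from RefSeq tables of GRCm38.p6. A promoter window is the stretch of 2 kb to each side of a centre in a protein-coding gene with most H3K4me3 over all libraries, found in steps of 100 bp. Genes with a mean coverage under 5% were not tested. Windows of 1 Mb used log2(covered bp + 1000), with a mean of at least 2000 bp, centred on the other autosomes. limma 3.58.1 (R 4.3.3) was fitted over all chromosomes and all 6 libraries of a mark, with Benjamini-Hochberg adjustment and a threshold of 0.05. Python 3.11.15, NumPy 2.4.6, pandas 2.3.3, SciPy 1.17.1 and Matplotlib 3.10.9 did the rest.

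On simulated data, limma recovered 85.1% of H3K27ac (10189 promoters) and 86.6% of H3K4me3 (14118 promoters) changes of 4 SD, and 8.96% and 11.9% of changes of 2 SD. Named genes are, for each mark, the 6 largest rises and falls past the threshold with all 4 knockout libraries outside both Control libraries, the 3 largest in KO2 minus KO1 each way, the members of 9 lists, and the 3 most changed 1-Mb windows each way. The values of 1 list member are not reported here. Ctcf is a list member singled out after its values were seen. The chromosome, its lists and the rules were chosen with earlier results of these data known. Same-numbered libraries deviated from their group means with correlations from −0.0533 to 0.0780, so replicate numbers do not pair them. Alternatives covered the peak threshold, list length, merging, normalization, filters, window sizes, the replicate block and leaving out each library.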

Additional observations from a re-analysis of the deposited data

Results flagged for a closer look

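The change from Control differed between the knockout lines at 14 promoter results, by the limma test of KO2 minus KO1 over all promoters. Rises in H3K27ac were larger in KO2 at Camsap3, by 55.3 points of coverage (adjusted p = 0.000267), at Gse1, by 43.6 (0.00121), and at Atmin, by 49.8 (0.000208). At Aprt and Eif4ebp1 the gaps were 59.4 and 57.9 points (0.000294 and 0.000267), with KO1 at −4.60 and 1.29 points from Control. Pkd1l2 differed by 19.8 points (0.00608), on rises of 62.0 in KO1 and 81.8 in KO2, and Klf2 by 17.0 (0.0133). Zmat4 fell less in KO2, by 29.2 points (0.00943). After each chromosome was centred on its own median, the gaps at Pkd1l2, Klf2 and Zmat4 were 3.00, 0.15 and 12.3 points and did not pass. Enpp6 and 4930432K21Rik rose more in KO1, with −18.5 and −9.56 points (0.0103 and 0.0404), and the latter lost its call under 5 of 13 alternatives. In H3K4me3 the gaps were 37.1 points at Il34 (0.0288), 36.4 at Tubb3 and 31.8 at the overlapping window of Mc1r (0.0158 each) and −18.7 at Arhgef18 (0.0305). The Arhgef18 gap was −5.06 points in a window centred on a RefSeq start site and did not pass.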

How the results depend on the processing

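The direction of the chromosome 8 shares and of its background held under every alternative run. The log2 share of H3K27ac peaks was −0.24 with −log10 q of at least 5 and −0.23 with equal list lengths. That of H3K4me3 peaks was −0.16 with peaks within 1 kb merged and −0.18 against the median other autosome. The H3K4me3 covered share was −0.32, −0.32, −0.28 and −0.32 with q, equal lists, merging and that median, and the H3K4me3 background −0.46 as a median over peaks. Leaving out 1 library at a time gave −0.30 to −0.25 and −0.36 to −0.30 for the H3K27ac peak and covered shares, −0.21 to −0.19 and −0.32 to −0.29 for H3K4me3, and −0.38 to −0.33 and −0.37 to −0.34 for the backgrounds. Promoter counts depended on the normalization. With quantile normalization, 0.716% of chromosome 8 promoters were higher and 3.22% lower in H3K27ac, against 2.46% and 1.07% of all promoters (limma). For H3K4me3 these were 0.651% and 4.69%, against 2.25% and 1.94%. The shares with chromosome centring are given above. Shares over all promoters or windows are not given for the other alternatives, and nothing was read from those counts. H3K27ac higher calls became 4 with quantile normalization, 20 with chromosome centring and 94 with equal lists, and 85 to 189 without 1 library. Lower calls became 18 with quantile normalization, 8 with chromosome centring and 1 in RefSeq start-site windows, and 1 to 6 without 1 library. H3K4me3 higher calls became 5 (quantile), 93 (chromosome centring), 5 (equal lists), 5 (replicate block) and 1 (start-site windows), and 0 to 2 without 1 library. Lower calls became 36, 45, 113, 157 and 77 in the same order, 93 with the q threshold and 0 to 121 without 1 library. H3K27ac windows of 1 Mb called higher became 0 (2 Mb), 5 (pseudocount 5000 bp), 5 (no minimum) and 56 (not centred), lower 6 (not centred), and 2 to 3 and 51 to 60 without 1 library. H3K4me3 windows called higher became 13 (0.5 Mb), 3 (2 Mb), 10 (pseudocount 5000 bp), 10 (no minimum), 0 (not centred) and 3 (q threshold), lower 38 (2 Mb), and 4 to 7 and 54 to 59 without 1 library. With equal lists, regions in both Control and no knockout libraries numbered 65 (H3K27ac) and 286 (H3K4me3), and H3K27ac regions in the knockouts alone 16. H3K4me3 regions in the knockouts alone numbered 9 with the q threshold. Phlpp2 and Hydin turned to −0.85 and −2.11 points in start-site windows. The cause was not tested for any of these. With the replicate block the shares were −0.27 and −0.33 (H3K27ac) and −0.20 and −0.31 (H3K4me3), both backgrounds −0.36 and −0.35, and H3K27ac promoter calls 230 higher and 4 lower, and among named genes it ended the call of Arhgef18 alone. The start-site windows and the block on the background were chosen after seeing the data. Depth is unknown, so values near a peak caller's limit cannot be weighted.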
